A study of Mus musculus with 3 samples.

Results

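Muscle-wall spots of mouse distal colon were compared between intact tissue and tissue at day 2 after wounding, both from mice wild-type (WT) for Hgfac, the gene of the protease that activates hepatocyte growth factor. In Visium each spot of an array captures the polyadenylated RNA of a small region of a tissue section, and each captured molecule is counted once by its unique molecular identifier (UMI). The spots were chosen by their own counts: a spot was taken as muscle wall where the UMIs of 7 smooth muscle genes (Myh11, Actg2, Des, Tagln, Cnn1, Acta2 and Myl9) made at least 2% of its UMIs and exceeded those of 6 epithelial genes (Epcam, Krt8, Krt18, Krt19, Cldn7 and Lgals4). This rule held for 226 of 502 spots of the WT intact library and 176 of 640 spots of the WT wound library, or 402 of 1142 spots in both and of 1714 in the whole series. A further library, from day 2 wounds of Hgfac knockout (KO) mice, had 89 muscle-wall spots among 572, and its levels are given beside the WT values without a comparison. Each library held fresh-frozen sections of 3 biological replicates that the labels tie to no spot, and each lay on its own capture area of the slide, so that area, library and group cannot be told apart. The labels give no age, sex or strain of the mice. The rule used no distance to the wound, so a muscle-wall spot of a wound library may lie anywhere on its section.

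The wall of the colon outside the mucosa includes a circular and a longitudinal layer of smooth muscle, and a serosa outside. Between the muscle layers lie a nerve plexus, interstitial pacemaker cells and resident macrophages. Smooth muscle contracts when calcium activates myosin light chain kinase, and myosin phosphatase and its inhibitors set how long the force lasts. After injury of the gut wall, monocytes enter from the blood, and fibroblasts and muscle cells can lay down collagen-rich matrix.

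The chosen spots of WT intact held 1837664 UMIs, those of WT wound 1904934 and those of KO wound 1033106. The median per spot was 7974, 9874 and 11642 UMIs in this order. Levels are CPM (counts per 1000000 UMIs), the UMIs of a gene over all muscle-wall spots of a library divided by all UMIs of those spots and scaled. Because there was 1 library per group, no replicate error and no test between groups exist, and brackets give 95% intervals that cover counting error only. The spots over tissue formed 3 separate pieces in each library, and ranges over pieces show the spread within a library. Genes with at least 50 UMIs over both WT libraries were compared, and a ratio of WT wound to WT intact of at least 2 was called higher and one of at most 0.5 lower. Levels were also read in stricter choices of spots, and a value is given where one of these ended the call of a gene described. These were a muscle share of at least 5%, which only 12 WT wound spots reached, epithelial UMIs at most 0.1 of muscle UMIs (the stricter epithelial limit), and interior spots, whose neighbours were all muscle wall too. A level summed over a spot cannot separate more or fewer cells of a kind from more or less RNA in each cell.

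As a description of the choice itself, muscle-wall spots made 45.0% of WT intact spots [40.6 to 49.5], 27.5% of WT wound spots [24.1 to 31.1] and 15.6% of KO wound spots [12.7 to 18.8]. In WT intact, piece 3 alone gave 138 of the 226 spots, and pieces 1 and 2 gave 35 and 50. In WT wound, pieces 1, 2 and 3 gave 73, 23 and 80. The median share of the 7 muscle genes was 3.92% of a spot's UMIs for WT intact, 3.28% for WT wound and 3.61% for KO wound, and the highest was 8.32%, 6.44% and 8.32%. The 3 spots nearest to the limit had shares of 2.01%, 2.06% and 2.10% inside it and 1.96%, 1.98% and 1.99% outside it in WT intact, and 2.01%, 2.02% and 2.02% inside it and 1.92%, 1.94% and 1.94% outside it in WT wound. None of the spots that met the share had as many epithelial as muscle UMIs. The spots still held epithelial RNA, with a median share of the 6 epithelial genes of 0.878% for WT intact, 0.740% for WT wound and 0.314% for KO wound. As a check of the name on genes that the rule did not use, the summed level of 26 contractile genes was 21225 CPM in the muscle-wall spots of WT intact against 2173 CPM in its other spots, and 18949 against 2502 CPM in WT wound. The 18 epithelial genes outside the rule still summed to 19362 CPM in the muscle-wall spots of WT intact, against 37749 CPM in its other spots. In WT wound these sums were 13529 and 46012 CPM. The chosen spots are thus rich in muscle and not free of mucosa.

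**Figure D1:**
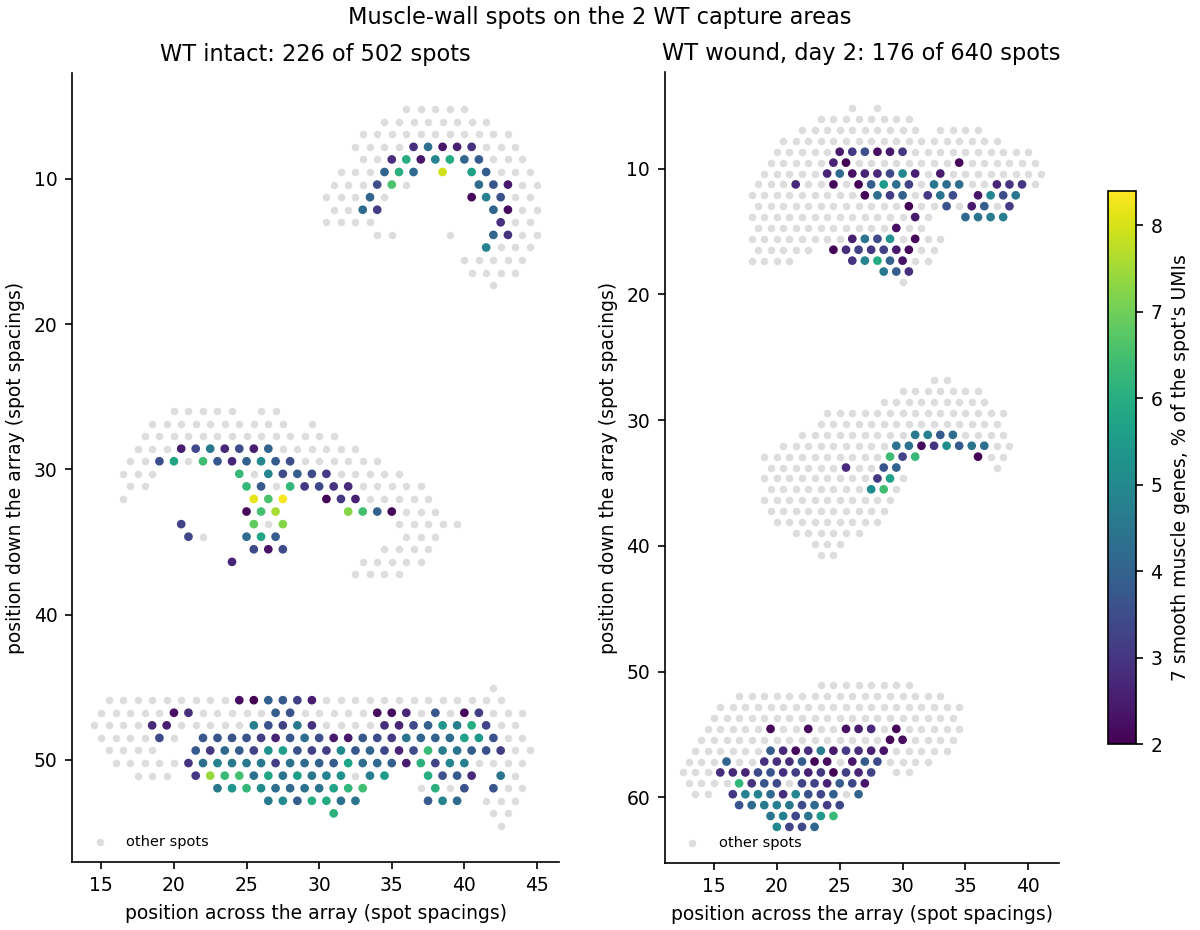
Array positions of all spots over tissue in the WT intact and WT wound libraries, in units of the spot spacing, with muscle-wall spots coloured by the share of their UMIs from the 7 smooth muscle genes of the rule and other spots in grey. The 226 and 176 muscle-wall spots form bands within the 3 pieces of each library, and piece 3 of WT intact, at the bottom, holds 138 of them.

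Of 8128 genes compared in the muscle-wall spots, 265 were higher in WT wound (3.26%) and 221 were lower (2.72%). These shares are the background for the count of called genes in each list below. A list with 1 called gene is not read as a difference of the list. The median log2 ratio over these genes was 0.11, and it was -0.005 with TMM scaling, a method that takes most genes as unchanged. With that scaling 198 genes were higher and 292 lower, and with the median of the gene ratios set to 1 the counts were 202 and 288. All 3 WT wound pieces lay above all 3 WT intact pieces for 894 genes (11.0%) and below them for 422 (5.19%), the background for each gene with pieces apart. Of the called genes, 181 of 265 higher and 132 of 221 lower genes had pieces that did not overlap. Genes called higher included 14 of 16 compared for macrophages and monocytes and 12 of 27 for fibrillar collagens and matrix, and among 25 contractile genes Smtn and Ppp1r14a were called lower and none higher.

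**Figure D2:**
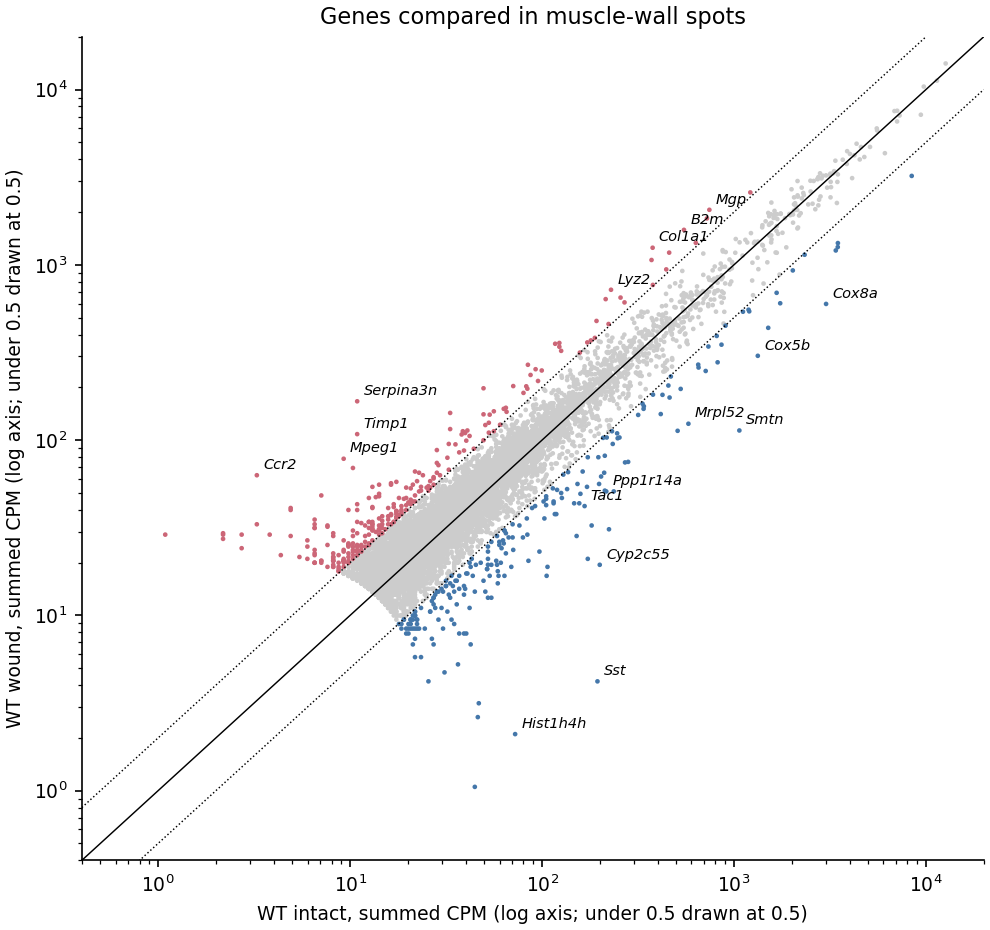
Summed CPM of each of the 8128 compared genes in muscle-wall spots of WT intact (x axis) and WT wound (y axis), both on log axes, with the 265 higher genes in red, the 221 lower genes in blue and the others in grey. The solid line marks equal levels and the dotted lines ratios of 2 and 0.5. Serpina3n, Ccr2 and Timp1 stand far above the upper line, and Sst, Hist1h4h and Smtn far below the lower one.

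The contractile genes outside the rule are those of the thin and thick filaments, their regulators and the plaques that anchor them. Of 25 compared, 0 were higher and 2 were lower, and the median log2 ratio over the 26 was -0.12 beside 0.11 for all genes. The chosen WT wound spots also held less muscle by the rule, with a median share of 3.28% against 3.92%. In spots with a muscle share of 2 to 3%, the 26 genes summed to 13925 CPM in WT intact and 14399 CPM in WT wound. At 3 to 4% these sums were 18867 and 19112 CPM, and at 4% or more 26318 and 23980 CPM. Smtn (ENSMUSG00000020439, chromosome 11, 3517522 to 3539292) encodes smoothelin, an actin-binding protein of fully contractile smooth muscle. It stood at 1098, 912 and 1146 CPM in the 3 WT intact pieces and at 89.2, 133 and 123 CPM in the 3 WT wound pieces. The groups did not overlap, and the library level of 113 CPM in WT wound was 0.106 times the 1066 CPM of WT intact [0.0920 to 0.123]. The KO wound level was 106 CPM. In the other spots of the same sections, where Smtn was less abundant, the ratio was 0.187.

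Ppp1r14a (ENSMUSG00000037166, chromosome 7, 29289320 to 29293390) encodes CPI-17, an inhibitor of myosin phosphatase that prolongs contraction. Its pieces stood at 273, 260 and 176 CPM in WT intact and at 63.5, 53.6 and 39.3 CPM in WT wound. They did not overlap, and the ratio was 0.236 [0.187 to 0.295], with 64.9 CPM in KO wound and a ratio of 0.480 in the other spots.

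The other 23 compared contractile genes lay between these limits. Tpm1, a tropomyosin of the thin filament, had a ratio of 0.762 [0.733 to 0.792], and the pieces stood apart, with 2837 to 3400 CPM in WT intact and 2230 to 2693 CPM in WT wound. The ratio of Synpo2, an actin-bundling protein, was 0.764 [0.683 to 0.853] and that of the intermediate filament gene Synm was 0.774 [0.695 to 0.861], each with overlapping pieces. On the other side, Cald1, which encodes caldesmon, had a ratio of 1.27 [1.18 to 1.36] with WT wound pieces at 806 to 900 CPM above WT intact pieces at 627 to 739. Vcl, the gene of the adhesion plaque protein vinculin, had a ratio of 1.29 [1.15 to 1.45] and Actn1, an alpha-actinin, one of 1.23 [1.10 to 1.37], each with overlapping pieces. Mylk, the gene of myosin light chain kinase, stood at 1403 CPM in WT intact and 1299 CPM in WT wound, a ratio of 0.926 [0.876 to 0.979], and Tpm2 at 5110 and 4704 CPM. Vcl, Actn1, Mylk and Tpm2 each differed between the libraries by less than the range of their pieces within a library.

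The 7 muscle genes of the rule are given as a description, since they chose the spots. Their ratios were 0.860 for Myh11, 0.823 for Actg2, 0.871 for Des, 0.670 for Tagln, 0.999 for Cnn1, 1.01 for Acta2 and 0.933 for Myl9. Tagln, which encodes transgelin, was the one of the 7 whose WT wound pieces, at 6514 to 7179 CPM, all lay below the WT intact pieces, at 9378 to 10943.

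**Figure D3:**
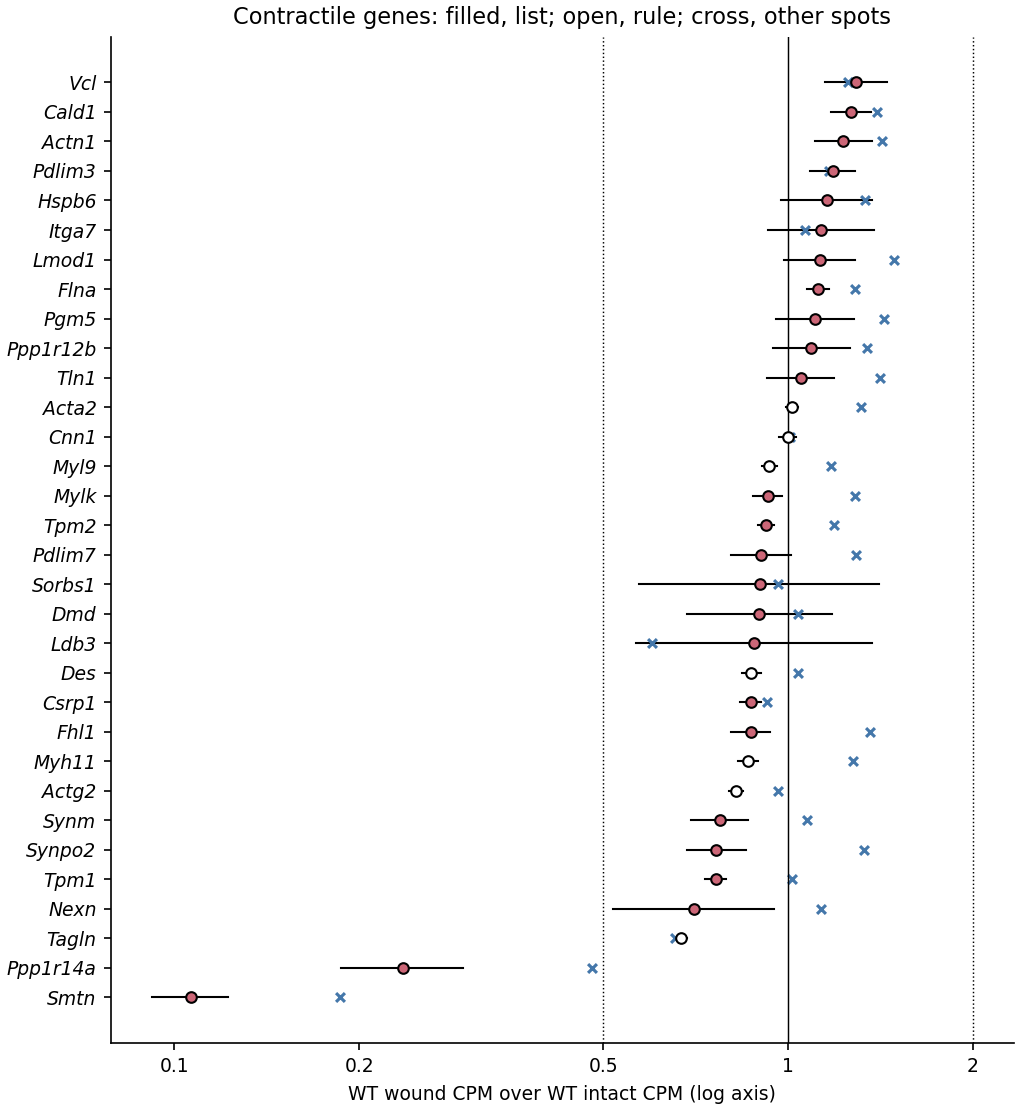
Ratio of WT wound CPM to WT intact CPM (log axis) for the contractile genes in muscle-wall spots, with 95% intervals of the counting error. Filled circles are genes outside the rule, open circles the 7 genes of the rule, and crosses the ratio in the other spots of the same libraries; dotted lines mark 0.5 and 2. Smtn, at 0.106, and Ppp1r14a, at 0.236, stand below 0.5, and every other gene shown lies between the dotted lines.

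The promoters of the 2 lower contractile genes and of Vcl are printed because serum response factor, a main activator of smooth muscle genes, binds a short AT-rich element called the CArG box. Each sequence is the 250 bases before the RefSeq transcript start, on the strand of the gene and 5′ to 3′, with any CArG box in capitals. Both strands were searched, and the motif reads the same on each.
Smtn, GRCm38.p6 chr11:3539293-3539542, minus strand: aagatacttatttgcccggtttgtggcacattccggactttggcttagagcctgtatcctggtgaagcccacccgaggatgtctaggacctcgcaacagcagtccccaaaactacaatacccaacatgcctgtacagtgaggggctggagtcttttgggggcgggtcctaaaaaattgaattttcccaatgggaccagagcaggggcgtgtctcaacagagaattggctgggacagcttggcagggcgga
Ppp1r14a, GRCm38.p6 chr7:29289070-29289319, plus strand: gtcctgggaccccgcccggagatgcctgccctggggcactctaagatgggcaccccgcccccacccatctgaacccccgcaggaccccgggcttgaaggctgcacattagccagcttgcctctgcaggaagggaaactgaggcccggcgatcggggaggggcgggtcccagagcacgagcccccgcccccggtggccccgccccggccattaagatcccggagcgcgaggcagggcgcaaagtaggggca
Vcl, GRCm38.p6 chr14:20929148-20929397, plus strand: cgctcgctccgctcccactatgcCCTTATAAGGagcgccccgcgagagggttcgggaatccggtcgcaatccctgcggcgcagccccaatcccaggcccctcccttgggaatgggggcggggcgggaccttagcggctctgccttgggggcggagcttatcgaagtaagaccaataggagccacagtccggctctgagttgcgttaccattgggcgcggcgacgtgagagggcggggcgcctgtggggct
The windows of Smtn and Ppp1r14a held 0 CArG boxes, and that of Vcl held 1, starting 227 bases before the transcript start. For the counts over many genes, the windows ran from 250 bases before to 50 bases after the start, longer than those printed. Among such windows of all annotated genes, 535 of 32851 (1.63%) held one. For the contractile list, 22 of the 26 genes had such a window, and 5 of their 29 windows, in 4 genes including Vcl, held one. The window printed for Smtn lies directly upstream of the gene span given above, so it covers no transcript start inside the gene. A match or its absence describes these letters only.

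Genes that set the excitability of the muscle differed less than 2-fold throughout. Of 16 compared genes for channels, calcium handling and receptors, 0 were called in either direction, and the median log2 ratio was 0.12. Atp2a2, the calcium pump of the sarcoplasmic reticulum, had pieces that did not overlap, with 251 to 262 CPM in WT intact and 275 to 422 CPM in WT wound, and a ratio of 1.41 [1.25 to 1.59]. Pln, which encodes phospholamban, an inhibitor of that pump, had a ratio of 0.772 [0.597 to 0.997], with WT intact pieces at 68.8 to 88.5 CPM and WT wound pieces at 44.3 to 65.0 CPM. Of the 6 genes of interstitial cells, which pace and relay contraction, 0 were called. Among them Kit, the receptor that marks the pacemaker cells, had a ratio of 1.14 [0.842 to 1.56], and Ano1, their chloride channel, one of 1.25 [0.998 to 1.58]. Pdgfra had a ratio of 1.47 [1.18 to 1.83], with WT wound pieces at 95.5 to 133 CPM above WT intact pieces at 58.2 to 83.7.

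Some genes of the enteric neurons were lower in the wound library. Of 21 compared, 0 were higher and 7 were lower (Syt1, Stmn3, Npy, Sst, Cartpt, Tac1 and Calb2), and the median log2 ratio over 23 was -0.63. Sst, the gene of somatostatin, an inhibitory peptide of neurons and endocrine cells, stood at 229, 430 and 54.8 CPM in the WT intact pieces and at 4.53, 0 and 6.14 CPM in the WT wound pieces. The ratio was 0.0216 [0.00926 to 0.0431], with 12.6 CPM in KO wound. It was 0.0453 without WT intact piece 2, 0.0116 without WT intact piece 3 and 0.0142 without WT wound piece 3. Tac1, the precursor of the excitatory transmitter substance P, stood at 32.7, 296 and 132 CPM in the WT intact pieces and at 43.8, 62.9 and 29.5 CPM in the WT wound pieces. Its groups overlapped, and the ratio of 0.252 [0.195 to 0.324] was 0.380 without WT intact piece 2. At a muscle share of at least 5% it was 0.757, above the limit for a call.

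Piece 2 of WT intact was richest in neuronal RNA, with a summed level of the list of 4498 CPM against 916 and 1500 CPM in pieces 1 and 3, and the WT wound pieces held 1144, 2554 and 730 CPM, so that the groups overlapped. The ratio of the summed levels was 0.555 [0.528 to 0.583], and 0.934 [0.879 to 0.994] without that piece. Stmn3, a tubulin regulator of neurons, had a ratio of 0.368 [0.285 to 0.472] that was likewise higher, at 0.594, without it. The other 14 compared neuronal genes were not called. Nos1, the enzyme that makes nitric oxide in inhibitory neurons, had a ratio of 1.17 [0.843 to 1.62], Vip, an inhibitory peptide, one of 0.702 [0.620 to 0.795] and Uchl1, a general neuronal marker, one of 0.647 [0.569 to 0.736]. Of 5 compared genes of enteric glia, 0 were called in either direction. In the other spots the ratio of the summed levels was 0.335 for the neuronal list and 0.917 [0.842 to 0.999] for the glia list.

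Matrix genes were higher in the muscle-wall spots of WT wound. Of 27 compared fibrillar collagens and matrix proteins, 12 were higher (Col1a1, Col1a2, Col3a1, Col5a1, Col5a2, Col6a3, Fn1, Sparc, Bgn, Fbln2, Eln and Mgp) and 0 were lower, and the median log2 ratio was 0.85. Their summed level was 9898, 7496 and 7709 CPM in the WT intact pieces, and every WT wound piece lay above these, at 17795, 20779 and 12744 CPM. The KO wound level was 21983 CPM. Col1a1, a chain of type I collagen (chromosome 11, 94936224 to 94953042), stood at 527, 370 and 339 CPM in the WT intact pieces and at 1593, 1673 and 752 CPM in the WT wound pieces. The groups did not overlap, and the ratio was 3.32 [3.05 to 3.62], with 1956 CPM in KO wound.

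Its partner chain Col1a2 had a ratio of 2.87 [2.63 to 3.13] and the type III collagen gene Col3a1 one of 2.55 [2.39 to 2.71], with pieces apart for both. Mgp, which encodes a matrix protein that prevents calcification, stood at 744 CPM in WT intact and 2059 CPM in WT wound, a ratio of 2.77 [2.60 to 2.95] that was 1.81 under the stricter epithelial limit. Lum and Dcn, proteoglycans of resting fibroblasts, had ratios of 1.55 [1.39 to 1.72] and 1.39 [1.303 to 1.48] and were not called. Matrix was higher in the other spots as well, where the summed level of the list was 2.09 times that of WT intact, against 2.05 times in the muscle-wall spots.

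Of 13 compared genes of the basement membrane that surrounds each muscle cell, 3 were higher and 0 lower. The type IV collagen chains Col4a1 and Col4a2 had ratios of 2.27 [2.04 to 2.53] and 2.07 [1.84 to 2.33], and the perlecan gene Hspg2 one of 2.03 [1.79 to 2.32]. Without WT wound piece 2 these were 1.86, 1.78 and 1.91, below the limit for a call. Col4a2 also missed it without WT intact piece 3 (1.87) or WT wound piece 1 (1.89), and Hspg2 without WT intact piece 2 (1.93) or WT wound piece 3 (1.96). With TMM scaling neither was called, nor was Col4a2 in interior spots, at 1.77, or Hspg2 under the stricter epithelial limit, at 1.93. Of 14 compared genes for matrix cross-linking and proteolysis, 4 were higher and 0 lower. Among the 4, Loxl2 had a ratio of 2.30, which was 1.18 in interior spots. Loxl2 was at 1.79 and 1.89 without WT wound pieces 1 and 2. Mmp3 had a ratio of 2.72, which was 1.40 at a muscle share of at least 5% and 1.70 in interior spots. Timp1, an inhibitor of matrix metalloproteinases (chromosome X, 20870166 to 20874737), stood at 7.27, 9.03 and 12.95 CPM in the WT intact pieces and at 80.1, 233 and 65.1 CPM in the WT wound pieces. The groups were far apart, and the ratio was 9.94 [6.27 to 16.6] and 6.6 without WT wound piece 2. The KO wound level was 304 CPM.

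Of 9 compared genes linked to the synthetic state of smooth muscle, in which the cells divide and secrete matrix, 2 were higher and 0 lower. Tnc, the matrix protein tenascin C, stood at 236, 197 and 141 CPM in the WT intact pieces and at 269, 792 and 208 CPM in the WT wound pieces. Its ratio was 2.10 [1.83 to 2.40], 1.37 without WT wound piece 2 and 1.73 without WT intact piece 3. It was also under 2 with TMM scaling, at 1.93, at a muscle share of at least 5%, at 1.67, and in interior spots, at 1.94. Spp1, which encodes osteopontin and is also made by macrophages, had 4 UMIs in WT intact and 55 in WT wound, a ratio of 13.3 [4.90 to 50.4] with overlapping pieces that ranged from 6.02 to 22.3 over the pieces left out. Without WT intact piece 1 no WT intact UMI was left. Vim, the intermediate filament of mesenchymal cells, had a ratio of 1.64 [1.48 to 1.82].

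Most genes of macrophages and monocytes were higher in the muscle-wall spots of WT wound. Of 16 compared, 14 were higher and 0 lower, and the median log2 ratio over 18 was 1.57. Their summed level was 1152, 768 and 772 CPM in the WT intact pieces and 1977, 3504 and 2325 CPM in the WT wound pieces. These did not overlap, the ratio of the sums was 2.99 [2.82 to 3.17], and the KO wound level was 4161 CPM. In the other spots the same sum went from 933 to 1746 CPM, a ratio of 1.87 [1.82 to 1.93].

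Ccr2 (chromosome 9, 124101918 to 124109140), the receptor that brings monocytes out of the bone marrow and into tissue, had 6 UMIs in WT intact and 120 in WT wound. Its pieces stood at 10.9, 0 and 2.99 CPM in WT intact and at 58.9, 58.3 and 68.8 CPM in WT wound. The ratio was 19.3 [8.61 to 53.6], and 32.8 without WT intact piece 1, with 110 CPM in KO wound. Itgam, an integrin chain of myeloid cells, had a ratio of 10.1 [4.40 to 28.6], and Trem2, a lipid receptor of macrophages, one of 6.83 [3.80 to 13.3].

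Mpeg1, which encodes the pore-forming protein perforin-2 of macrophages, stood at 25.4, 5.42 and 6.98 CPM in the WT intact pieces and at 49.9, 110 and 84.8 CPM in the WT wound pieces, a ratio of 8.46 [5.11 to 14.9]. Lyz2, the macrophage lysozyme (chromosome 10, 117277541 to 117282272), stood at 364, 202 and 207 CPM in the WT intact pieces and at 496, 1149 and 677 CPM in the WT wound pieces. No piece overlapped for either gene, and the Lyz2 ratio was 3.15 [2.82 to 3.52].

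Tyrobp, an adaptor of myeloid receptors, had a ratio of 3.99 [3.16 to 5.07], Adgre1, the gene of the macrophage antigen F4/80, one of 3.67 [2.22 to 6.34], and C1qa, a complement chain made by macrophages, one of 2.77 [2.38 to 3.24]. Cd163, a scavenger receptor of resident macrophages, had too few UMIs for a call, at 9 and 14. Neutrophil and lymphocyte lists had 0 compared genes. The 9 neutrophil genes summed to 7.62 and 28.4 CPM in the WT libraries, intact first, and to 285 CPM in KO wound, of which piece 2 with 19 spots carried most, since 54.3 CPM were left without it. The WT wound sum was 18.3 CPM without piece 2. The list had Cxcr2, Mmp8 and Ngp at 0 UMIs in both WT libraries. Such a count allows up to 1.63 CPM in WT intact and 1.57 CPM in WT wound. The 15 lymphocyte genes summed to 11.4, 47.8 and 45.5 CPM in the same order, and to 19.2 CPM in WT intact without piece 3.

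**Figure D4:**
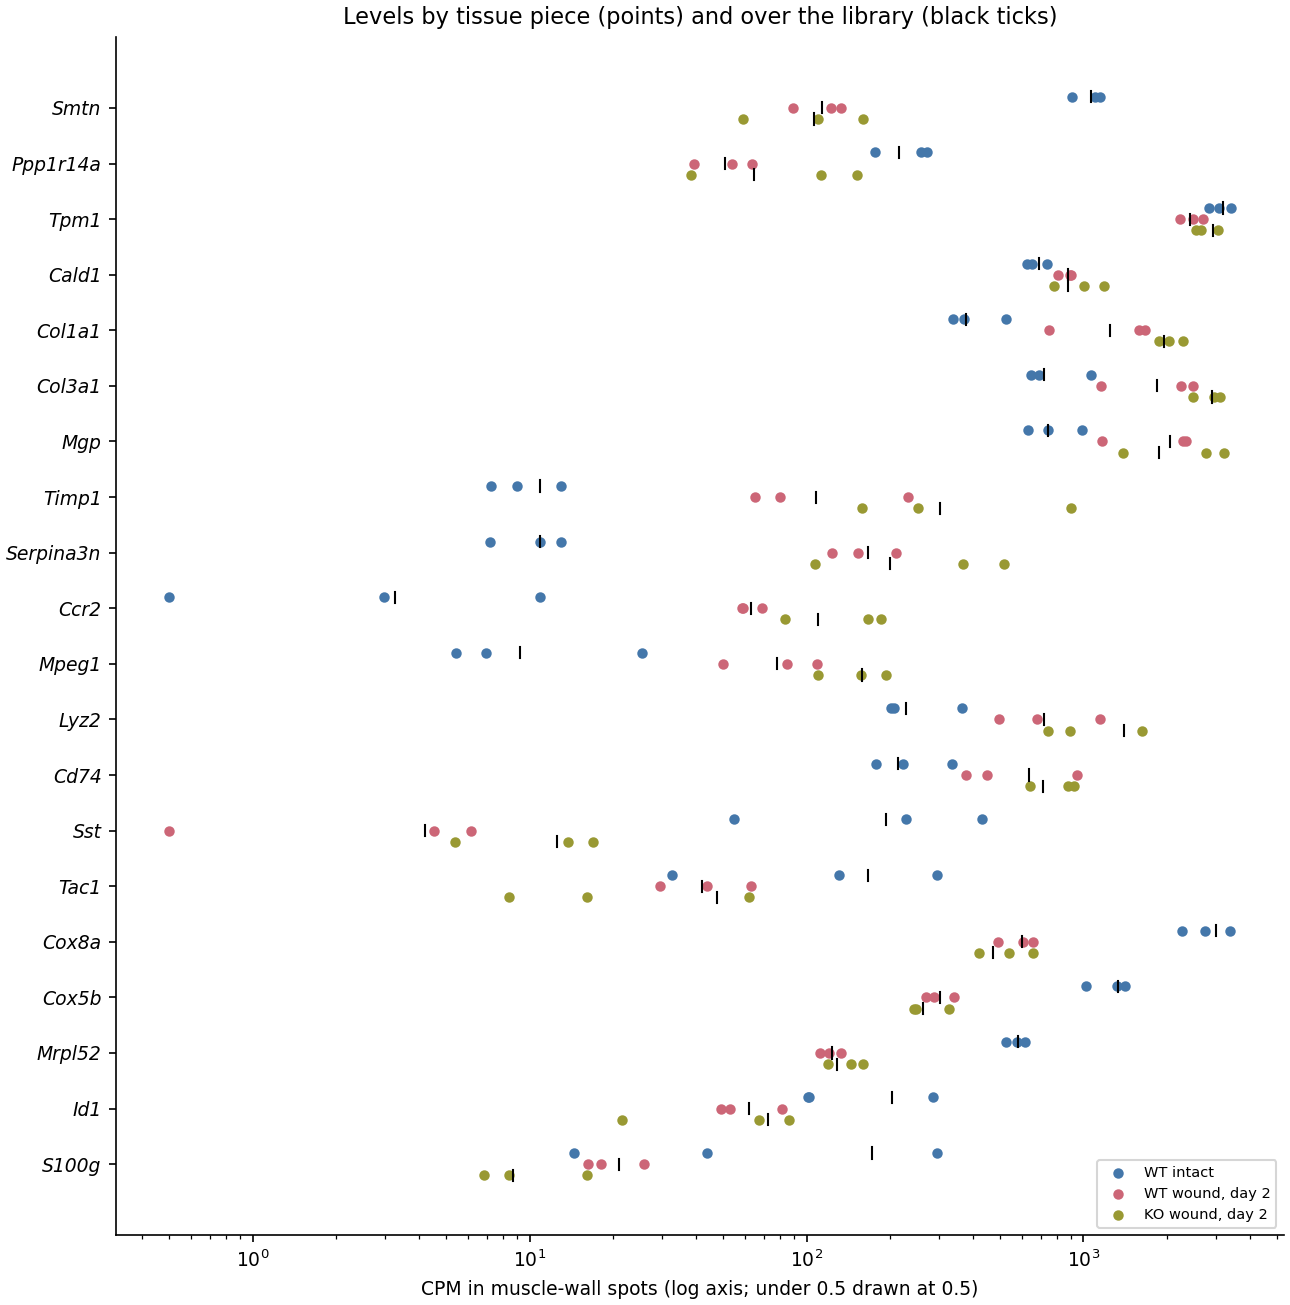
CPM of 20 named genes in muscle-wall spots on a log axis, with 1 point per tissue piece and a black tick for the level over the library, in each of the 3 groups. For Smtn, Serpina3n, Ccr2, Cox8a and Mrpl52 the WT intact points stand wholly apart from the WT wound points, while those of Tac1 and S100g overlap.

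Serpina3n, an acute-phase protease inhibitor (chromosome 12, 104406646 to 104414334), came first in the ranking of the higher genes. It stood at 10.9, 7.22 and 12.95 CPM in the WT intact pieces and at 210, 123 and 154 CPM in the WT wound pieces. The ratio was 15.3 [9.73 to 25.4], and the KO wound level was 200.4 CPM. In the other spots the ratio was 8.44 [6.55 to 11.04]. Of 6 compared acute-phase genes 3 were higher and 0 lower. The others were Hp, the haemoglobin-binding haptoglobin, at 5 and 55 UMIs, and Lrg1, at 6.53 and 23.6 CPM. All Hp UMIs of WT intact lay in piece 3, so that no ratio was left without it.

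Antigen presentation and complement genes followed. Of 6 compared genes of the MHC class II pathway 4 were higher and 0 lower. Cd74, the invariant chain, stood at 334, 222 and 178 CPM in the WT intact pieces and at 376, 450 and 947 CPM in the WT wound pieces. Its ratio of 2.97 [2.65 to 3.34] was 1.89 without WT wound piece 3. The MHC class I light chain B2m had a ratio of 2.88 [2.69 to 3.10], which was 1.96 without the same piece, and H2-Aa one of 2.91 [2.50 to 3.40], which was 1.92 without it. Cd74, B2m and H2-Aa were at 1.78, 1.80 and 1.21 at a muscle share of at least 5%, and B2m and H2-Aa at 1.65 and 1.43 under the stricter epithelial limit.

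Of 8 compared complement genes 3 were higher and 0 lower. C1ra and C1s1, proteases of the first complement component, had ratios of 2.83 [2.22 to 3.63] and 2.45 [2.03 to 2.98], the latter 1.94 without WT intact piece 3. C4b had one of 2.60 [2.07 to 3.30], which was 1.81 without WT wound piece 3. Under the stricter epithelial limit C1ra, C1s1 and C4b were at 1.5, 1.61 and 1.46, all below the limit for a call, and at a muscle share of at least 5% C1ra and C4b were at 1.40 and 1.83. Of 12 compared interferon response genes 5 were higher and 0 lower. Of these, Gbp2 had a ratio of 2.01, which was 1.85 with TMM scaling. At a muscle share of at least 5% Gbp2 was at 1.46, and under the stricter epithelial limit at 1.22. Tap1 had a ratio of 2.30, which was 1.69 without WT wound piece 3 and 1.70 without WT intact piece 3. At a muscle share of at least 5%, under the stricter epithelial limit and in interior spots Tap1 was at 1.17, 1.54 and 1.96. Ifi27l2a, at 256 and 650 CPM, was the most abundant of the 5, with a ratio of 2.54 [2.28 to 2.82] and pieces apart.

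Of 8 compared cytokines and chemokines 3 were higher and 0 lower. Ccl5, which attracts T cells and monocytes, had 2 UMIs in WT intact and 55 in WT wound, a ratio of 26.5 [7.003 to 225], with 12.0 without WT intact piece 3 and 45.1 without WT intact piece 1. Ccl8, a monocyte attractant of tissue macrophages, stood at 7.27, 0 and 21.9 CPM in the WT intact pieces and at 66.5, 28.0 and 57.7 CPM in the WT wound pieces. Its ratio was 4.14 [2.64 to 6.75], and 22.6 without WT intact piece 3. It was 0.778 in the spots with a muscle share of at least 5%, of which WT wound had only 12. Cxcl12, a stromal chemokine, had a ratio of 2.34 [1.94 to 2.85] with overlapping pieces, and 1.98 under the stricter epithelial limit. Osm, Tnf, Cxcl2 and Csf3 were at 0 UMIs in both WT libraries.

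Of 17 compared genes of the TGF-beta, activin and BMP group 3 were higher (Tgfbi, Ccn1 and Grem1) and 1 lower (Id1). Tgfbi had a ratio of 2.28, which was 1.71 without WT intact piece 3 and 1.715 without WT wound piece 2. Ccn1 had one of 2.23, which was 1.72 without WT intact piece 2 and 1.16 without WT wound piece 3. Under the stricter epithelial limit Ccn1 was at 1.98. Grem1, a secreted BMP antagonist of intestinal muscle and fibroblasts, stood at 153, 110 and 128 CPM in the WT intact pieces and at 364, 357 and 272 CPM in the WT wound pieces. These did not overlap, and the ratio was 2.57 [2.20 to 3.00], with 723 CPM in KO wound. It was 1.97 at a muscle share of at least 5%. Chrdl2, a BMP-binding protein outside this list, had a ratio of 6.70 [4.13 to 11.5], which was 4.46 without WT wound piece 2. Id1, a direct target of BMP signals, stood at 102, 101.1 and 287 CPM in the WT intact pieces and at 81.6, 48.9 and 52.8 CPM in the WT wound pieces. Its ratio was 0.305 [0.246 to 0.376], 0.608 without WT intact piece 3 and 0.744 under the stricter epithelial limit. Its relative Id3 had one of 0.587 [0.484 to 0.711] with pieces apart.

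Of 5 compared Wnt and R-spondin genes 1 was higher, Rspo3, a Wnt agonist of the stem cell niche, with a ratio of 2.08 [1.40 to 3.14] that was 1.73 without WT intact piece 2 and 1.77 without WT wound piece 3. It was also under 2 with TMM scaling, at 1.92, and under the stricter epithelial limit, at 1.41. Of 16 compared genes of the HGF pathway and other growth factors 2 were higher and 0 lower. Igfbp5, which binds insulin-like growth factors, had a ratio of 2.49 [2.20 to 2.82], and Igf1 one of 2.32 [1.49 to 3.67], 1.86 without WT intact piece 3 and 1.98 in interior spots. Igfbp5 was at 1.13 at a muscle share of at least 5% and at 1.75 as a mean over bins of the muscle share. Hgf, the ligand of the pathway named in the genotypes, had 6 UMIs in WT intact and 5 in WT wound. Hgfac itself stood at 53.9 and 57.7 CPM in the WT libraries, intact first, and at 7.74 CPM in the library labelled KO.

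Of 10 compared genes of blood vessel endothelium 1 was higher, the von Willebrand factor gene Vwf, with a ratio of 2.63 [1.85 to 3.81] and overlapping pieces, and 1.38 in interior spots. Pecam1, an endothelial adhesion molecule, had one of 1.89 [1.35 to 2.69] with pieces apart. Of 6 compared lymphatic genes 1 was higher, Pdpn, the podoplanin gene also made by activated fibroblasts, with a ratio of 3.18 [1.99 to 5.25]. Lyve1, a receptor of lymphatic endothelium and resident macrophages, had a ratio of 0.537 [0.371 to 0.770]. Of 4 compared genes of pericytes and vessel muscle 0 were called. Beside the 3.26% of all compared genes that were higher, 1 call in a vessel list describes that gene only.

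Lower genes also included nuclear genes for the respiratory chain. Of 62 compared, 0 were higher and 7 lower (Ndufa6, Ndufb2, Uqcrq, Cox5b, Cox6a1, Cox7a1 and Cox8a), and the median log2 ratio was -0.16. Cox8a, a subunit of cytochrome c oxidase (chromosome 19, 7215158 to 7217616), stood at 2268, 2748 and 3372 CPM in the WT intact pieces and at 659, 489 and 606 CPM in the WT wound pieces. The ratio was 0.198 [0.186 to 0.211], with 469 CPM in KO wound and a ratio of 0.185 in the other spots. Cox5b, of the same complex, had a ratio of 0.227 [0.207 to 0.249], with 262 CPM in KO wound against 1330 CPM in WT intact and 302 CPM in WT wound.

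The other 55 genes of the 62 were not called. Of all 62, 50 had ratios below 1 and 12 had ratios above 1. Ndufs4, Uqcrfs1 and Ndufa9, with 1.36 [1.10 to 1.69], 1.299 [1.09 to 1.55] and 1.27 [1.04 to 1.54], were among the 12. The list summed to 33611, 37242 and 40674 CPM in the WT intact pieces and to 28022, 26117 and 27827 CPM in the WT wound pieces. These did not overlap, and the ratio of the sums was 0.713 [0.705 to 0.721], with 0.722 in the other spots. Of 12 compared mitochondrially encoded genes 0 were called, and all mitochondrial transcripts made 5.90% and 6.16% of the UMIs in the WT libraries, intact first, and 5.23% in KO wound. Mrpl52, of the mitochondrial ribosome (chromosome 14, 54426909 to 54429750), had a ratio of 0.214 [0.185 to 0.247], with WT intact pieces at 527 to 614 CPM and WT wound pieces at 112 to 133 CPM. Rex1bd had one of 0.216 [0.171 to 0.269], with 0.179 in the other spots, and Ndufaf8, an assembly factor of complex I, one of 0.180 [0.135 to 0.236], with 0.155 there. For these genes the spread between the pieces of a library was small beside the difference between the libraries.

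Hist1h4h, a histone H4 gene, had 133 UMIs in WT intact and 4 in WT wound, with 0.0290 as the ratio [0.00779 to 0.0760]. It was 0.0449 without WT intact piece 3, 0.0444 without piece 1 and 0.0127 without piece 3 of WT wound. Histone genes of this cluster are near copies of one another, so reads may be divided among them. Of 6 compared histone genes 1 was lower. Of 19 compared cell cycle genes 0 were higher and 1 lower, Ccnb2, while 2.72% of all compared genes were lower. Of 14 heat shock genes 0 were called, and of 18 immediate early and stress genes 2 were higher, Egr1 and Nr4a1, at 42 and 47 UMIs in WT wound. Without WT intact piece 3 their ratios were 1.53 and 1.71, and Egr1 was at 1.64 without WT wound piece 2 and at 1.96 with TMM scaling. Nr4a1 was at 1.75 at a muscle share of at least 5% and at 0.661 under the stricter epithelial limit. Of 19 compared genes of glycolysis and hypoxia 0 were higher and 1 was lower, Ankrd37, at 34 and 16 UMIs, whose ratio of 0.454 was 0.584 without WT intact piece 3, 0.549 without piece 2 and 0.595 without piece 3 of WT wound.

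RNA of other tissues differed between the libraries and between pieces. The 18 epithelial genes outside the rule summed to 10228, 10650 and 26640 CPM in the WT intact pieces and to 14738, 9639 and 14597 CPM in the WT wound pieces. Of 17 compared, 0 were higher and 4 lower (Car1, Car4, Cldn3 and Phgr1). Phgr1 had a ratio of 0.383 [0.365 to 0.401], and 0.980 without WT intact piece 3, while Car1 and Car4 had 0.407 and 0.397, and 1.02 each without it. Car1 was also at 0.514 without WT wound piece 3. Cldn3, at 0.450, was at 0.730 without WT intact piece 3 and at 0.508 without WT wound piece 2. Under the stricter epithelial limit Phgr1, Car1, Car4 and Cldn3 were at 0.758, 0.773, 0.789 and 0.860.

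The colonocyte genes Cyp2c55, a cytochrome P450, and S100g, a calcium-binding protein, had ratios of 0.0973 [0.0674 to 0.137] and 0.121 [0.0851 to 0.169], which were 0.477 and 0.876 without the same piece. Cyp2c55 was 0.0604 without WT wound piece 1. Sprr2b had one of 0.187 [0.137 to 0.252], 0.717 without WT intact piece 3 and 0.121 without WT wound piece 3. Under the stricter epithelial limit S100g was at 0.771 and Sprr2b at 1.16. The part of epithelial RNA in the other results was not tested. Smtn, Cox8a and Cox5b were, without WT intact piece 3, at 0.117, 0.231 and 0.246.

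Mesothelial, fat and antibody genes differed widely between the pieces of a library. Msln, of the serosal mesothelium, stood at 43.6, 116 and 0.997 CPM in the WT intact pieces and at 0, 30.3 and 0 CPM in the WT wound pieces, and its ratio was 0.161 [0.0820 to 0.291]. It was 0.626 without WT intact piece 2, 0.0739 without WT intact piece 3, and 0.246, 0 and 0.281 without WT wound pieces 1, 2 and 3. Cfd, the adipocyte gene of complement factor D, lay in piece 1 of both libraries, at 251 and 308 CPM, and its ratio of 2.83 [2.14 to 3.76] was 168 without WT intact piece 1, 1.28 without WT intact piece 3, 0.0211 without piece 1 and 4.91 without piece 3 of WT wound. In interior spots it was 0.564. The antibody list summed to 7368 CPM in piece 1 of WT intact and to 217 and 304 CPM in its other pieces. Of its 6 compared genes 1 was higher, Iglc1, and 1 lower, Ighg1, with ratios of 2.38 and 0.0567. Without WT intact piece 1 these were 65.4 and 4.10. Without WT intact piece 3 they were 1.11 and 0.0261, and Iglc1 was at 1.66 without WT intact piece 2 and at 1.36 without WT wound piece 1. In interior spots they were 0.564 and 1.38. Of 2 compared genes of skeletal muscle both were lower, with Ckm, the muscle creatine kinase, at 171 and 54.1 CPM, a ratio of 0.315 [0.250 to 0.395] and pieces apart. The other, Acta1, had a ratio of 0.432. It was 0.573 without WT intact piece 3 and 0.5225 at a muscle share of at least 1%, above the limit for a call.

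**Figure D5:**
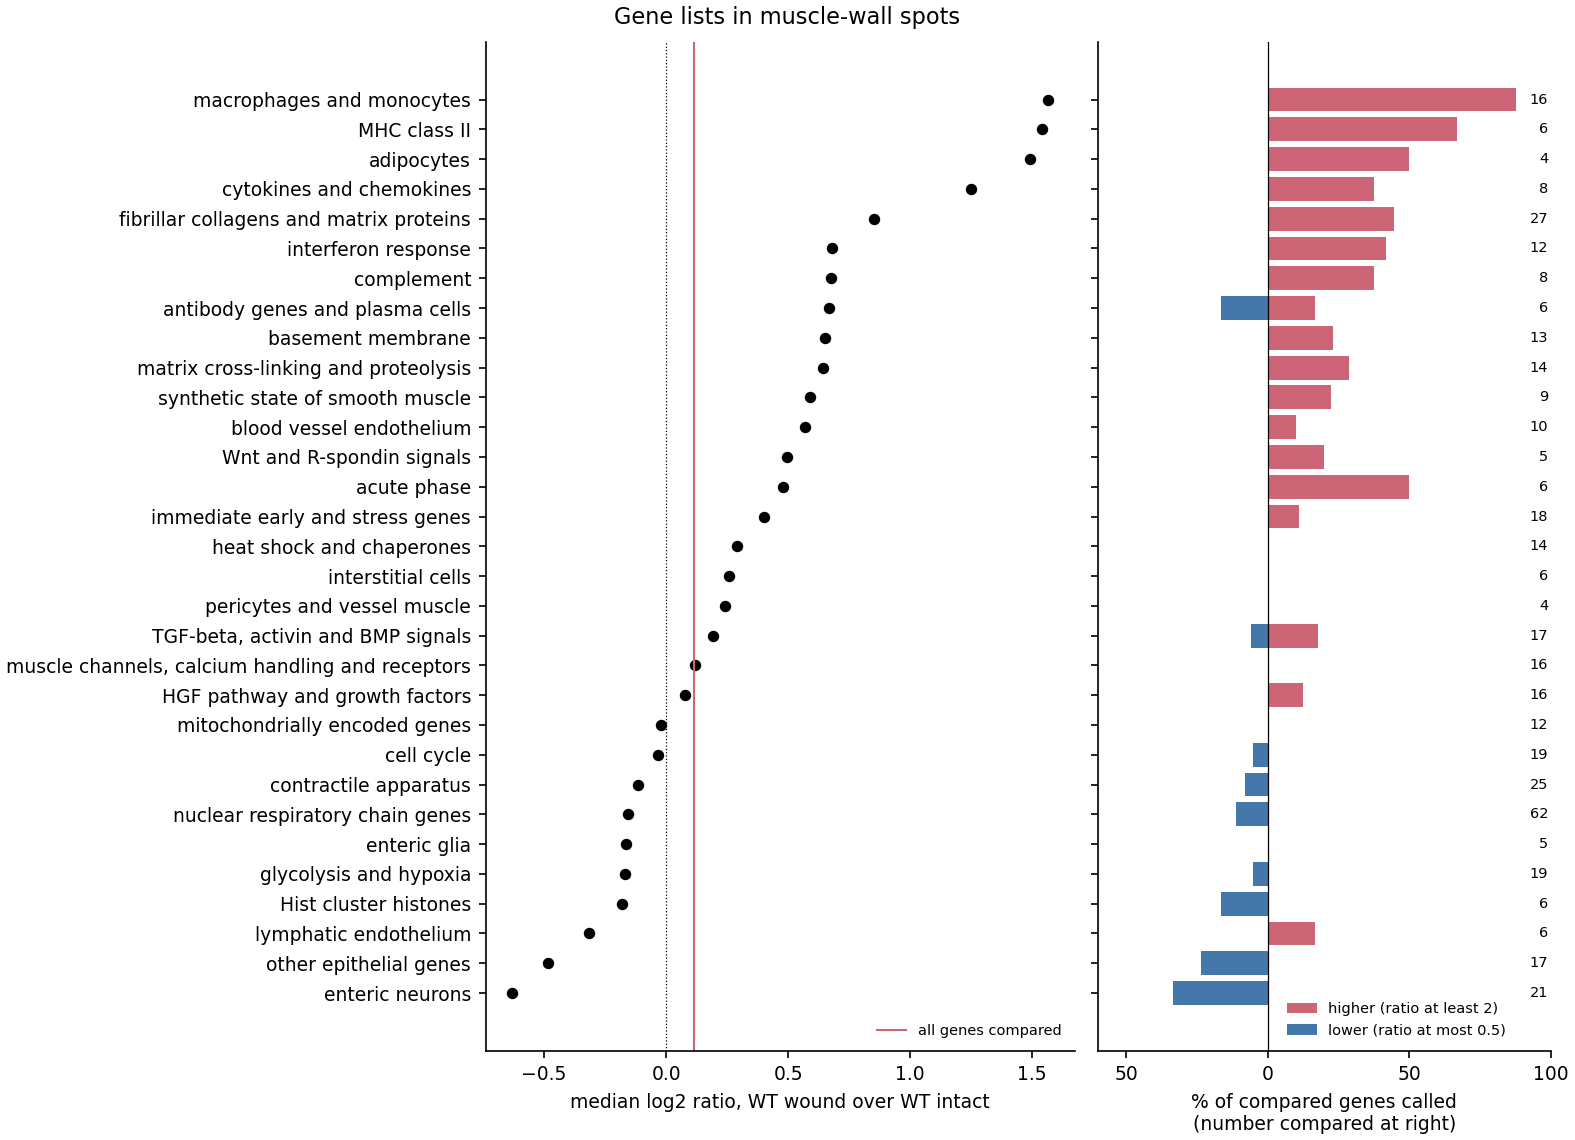
Gene lists with at least 4 compared genes in muscle-wall spots. The left panel gives the median log2 ratio of WT wound to WT intact over the members with at least 10 UMIs, with the median of all compared genes, 0.11, as a red line, and the right panel gives the share of compared genes called higher (red, to the right) or lower (blue, to the left) with the number compared. Macrophages and monocytes, with 14 of 16 genes higher, stand at the top, and enteric neurons, with 7 of 21 lower, at the bottom.

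Because muscle content differed among the chosen spots, levels were also read within bins of the muscle share. Smtn stood at 639, 889 and 1396 CPM in WT intact spots with a muscle share of 2 to 3%, 3 to 4% and at least 4%, and at 87.1, 130 and 129 CPM in WT wound spots. Its level followed the muscle share in WT intact, and its ratio lay between 0.0923 and 0.146 in the 3 bins. The bins held 44, 75 and 107 spots in WT intact and 69, 53 and 54 in WT wound. Col1a1 had ratios of 2.59, 3.15 and 3.94 and Lyz2 ratios of 2.24, 3.31 and 3.69 in the same bins. Cox8a had ratios of 0.246, 0.179 and 0.184. All of these genes remained past the limit for a call in each bin.

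Bins of the epithelial share, chosen after the data were seen, gave ratios of 0.0963, 0.105 and 0.114 for Smtn in spots with under 0.5%, 0.5 to 1% and at least 1% of epithelial UMIs, and 4.92, 2.56 and 2.21 for Col1a1. Cd74 had ratios of 1.89, 2.84 and 4.91. Sst was found in WT intact mainly in spots poor in epithelial RNA, at 582 CPM under 0.5% against 10.2 CPM at 1% or more. Its ratio in the latter spots was 0.854. That bin held only 686238 UMIs in WT intact and 344438 in WT wound, so this ratio rests on counts near the floor and is imprecise. In interior spots Smtn had a ratio of 0.0962, Serpina3n 10.3, Lyz2 3.66, Col1a1 2.79 and Cox8a 0.170. These interior spots numbered 103 in WT intact and 56 in WT wound.

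Single spots varied widely around these levels. The summed level of the macrophage genes in a spot had its 10th percentile, median and 90th percentile at 205, 611 and 1647 CPM over 226 WT intact spots and at 771, 1799 and 4570 CPM over 176 WT wound spots, so that the median wound spot lay above the 90th percentile of the intact ones. For the matrix genes these were 4751, 7516 and 12060 CPM in WT intact and 9408, 13935 and 23602 CPM in WT wound. For the contractile genes they were 14058, 20874 and 30354 CPM and 12458, 18477 and 25377 CPM, and most of the 2 ranges overlapped. Neuronal genes were unevenly spread, with a median of 541 CPM and a 90th percentile of 6318 CPM in WT intact, and 399 and 2154 CPM in WT wound. Spots of 1 library are not replicates, and these percentiles describe the sections only.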

How the data were processed

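The Visium libraries, 1 per group (WT intact, WT wound at day 2, KO wound at day 2) with sections of 3 biological replicates each, were analysed as deposited. The values are unnormalized UMI counts of 32285 features, which the authors produced with Space Ranger 1.2.1, per the file headers. The submitters' processing notes name mm10 as the build. The annotation and read filters are not given in the sources used here.

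UMI counts were summed over muscle-wall spots and scaled to CPM. At these depths 3 UMIs, the floor, are 1.63, 1.57 and 2.90 CPM for WT intact, WT wound and KO wound. Ratios have exact conditional binomial intervals and shares exact Clopper-Pearson intervals at 95%, which cover counting error only. With 1 library per group no p-value was given. The 13 genes of the rule were left out of the counts of called genes. Where features shared a symbol, the one with most UMIs kept it. The muscle-wall spots of the WT libraries share 11 array barcodes, which are array positions. Pieces are connected groups of at least 20 neighbouring spots, and 5 WT intact spots, 3 of them muscle wall, lay in none.

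The spots, the 35 gene lists and the thresholds were chosen with earlier results of these data known. In each direction the rule for named genes took the 15 genes with at least 100 UMIs whose interval lay farthest from 1, passing over unnamed genes, those of ribosomal proteins and of mitochondria, and antibody variable segments. Up to 4 genes per list and direction with at least 30 UMIs, all contractile genes with as many UMIs, the genes of the rule and up to 5 genes in each direction called oppositely in the other spots followed by the same ranking. A selection is printed. Cd163, Kit, Ano1, Nos1, Vip, Uchl1, Lum, Dcn, Adgre1, C1qa, Ccnb2, Hgf and Hgfac, and called list members named without rank, were chosen after their values were seen. List medians use members with at least 10 UMIs and a pseudocount of 0.5. Chromosome positions and promoter sequences came from RefSeq for GRCm38, with 179 of 188 named genes matched. The ratio and its interval were tested on simulated data. Alternatives changed the spots, scaling, weights, minimum UMIs, depth and pieces. Python 3.11.15, numpy 2.4.6, scipy 1.17.1, pandas 2.3.3 and edgeR 4.0.16 (TMM factors only) were used.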

Additional observations from a re-analysis of the deposited data

Results flagged for a closer look

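Hbb-bt, a beta-globin gene of red blood cells, was the only gene called in opposite directions in the muscle-wall spots and in the other spots, among 8047 genes compared in both. Its ratio of WT wound to WT intact was 2.001 [1.24 to 3.30] in the muscle-wall spots and 0.359 in the other spots. The WT wound level came from piece 3, at 66.3 CPM against 3.02 and 0 CPM in pieces 1 and 2, and without that piece the ratio was 0.125. With TMM scaling it was 1.84, below the limit for a call. The difference between the kinds of spot was not tested. Globin genes of the cluster are near copies of one another, so reads may be divided among them.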

How the results depend on the processing

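Of the 83 named genes that were called, 39 stayed past the fold under all 17 other settings and all 6 omissions of a piece, 4 lost it only with a piece left out, and 40 under another setting. The minimum of 20 UMIs and that of 200 UMIs, among these settings, changed which genes were counted and not their ratios. No call could therefore be lost under them. The minimum of 50 UMIs was not applied again in the smaller sets of spots, and ratios that could not be computed were passed over. Against 265 higher and 221 lower genes, spots with a muscle share of at least 5% gave 53 and 89, spots under a stricter limit on epithelial UMIs (at most 0.1 of the muscle UMIs) 126 and 94, a mean over bins of muscle share 438 and 414, a minimum of 20 UMIs 612 and 408, and a minimum of 200 UMIs 63 and 91. Interior spots gave 151 higher genes. Fewer genes were tested under the stricter settings, and 12 WT wound spots reached a muscle share of 5%. Leaving out a piece gave 197 to 324 higher and 195 to 250 lower genes. The muscle-wall share of spots, 45.0% for WT intact and 27.5% for WT wound, was 52.8% and 36.7% at a muscle share of at least 1%, 9.96% and 1.88% at 5%, 6.97% and 4.53% with the stricter epithelial limit, and 0% in both at 10%, which no spot reached and which therefore gave no gene counts. With a piece left out it was 32.7 to 49.7% in WT intact and 22.5 to 33.0% in WT wound.

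Some named genes turned direction, and the cause was not tested. In spots with a muscle share of at least 5%, ratios were 0.778 for Ccl8, 2.33 for Ighg1, 0.778 for Hbb-bt and 0 for Car3. With the stricter epithelial limit they were 1.16 for Sprr2b, 0.327 for Iglc1 and 0.661 for Nr4a1. In interior spots they were 0.564 for Iglc1, 1.38 for Ighg1, 0.564 for Cfd and 0.503 for Car3. Car3 was at 0.775 with equal weight per spot and 0.952 over bins of muscle share. With a piece left out, ratios ran from 0.0261 to 4.10 for Ighg1, 0.0211 to 168 for Cfd, 0.296 to 32.8 for Car3, 0.311 to 1.02 for Car4, 0.290 to 1.02 for Car1 and 0.125 to 3.07 for Hbb-bt. The bins of epithelial share and the omission of spots outside the pieces were chosen after seeing the data. No paired analysis was possible because each group is 1 library. Depth limits genes under 50 UMIs, which were not compared.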
